A study of Mus musculus with 1078 samples.

Results

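The genes described here encode 9 proteins of the endothelial tight and adherens junction: Cldn5, Ocln, Jam2, F11r, Esam, Cdh5, Pecam1, Tjp1 and Cgnl1. They were taken by name from the 21765 genes of a single-cell RNA-seq table of mouse glioma, and all 9 were found in it. Their levels were followed by deposited cell type, by deposited endothelial cluster and by treatment. The treatment comparison used the tumor endothelial cells (TECs) of the CD31-positive sort, which held 314 of the 1078 cells in all.

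The tumors were grown from GL261, a glioma line of the C57Bl/6 strain, in the forebrain of C57Bl/6 mice of both sexes aged 6 to 8 weeks. Control mice received phosphate-buffered saline and control IgG. Losartan, an angiotensin receptor blocker, was injected daily at 60 mg/kg, starting 1 week before the first antibody dose, and the anti-PD1 antibody was injected at 200 μg per mouse, 3 doses 3 days apart. The control plate of that sort gave 43 TECs, the losartan plate 57, the anti-PD1 plate 79 and the plate with both agents 16, and all groups carried the same tumor line. Each group was 1 plate of sorted cells per sort and no label names an animal, so treatment and plate cannot be told apart and no test between groups was possible. Cells are not replicates: every interval below is an exact (Clopper-Pearson) 95% binomial interval that covers counting error over the cells of that plate alone.

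A tight junction seals the gap between neighbouring cells. In brain capillaries claudin-5 (Cldn5) is its main strand-forming protein, and occludin (Ocln) sits in the same strands. The immunoglobulin-like proteins JAM-B (Jam2), JAM-A (F11r) and ESAM (Esam) join the same contacts from the membrane, while ZO-1 (Tjp1) and the cingulin-like protein paracingulin (Cgnl1) tie them to actin from inside. The adherens junction is built on VE-cadherin (Cdh5), and PECAM-1 (Pecam1), which is CD31 itself, lies along the cell border outside both structures.

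All 9 genes are annotated as protein-coding. In the GRCm38 (mm10) build, GENCODE places Cldn5 at chr16:18776847-18778262 on the plus strand, Ocln at chr13:100496507-100552718 on the minus strand and Cgnl1 at chr9:71626509-71771602 on the minus strand. No exon of a member overlapped an annotated exon of another gene. Cldn5, Ocln and Cgnl1 were the members nearly missing from cluster 12 of the TECs, as described below, and the 250 bases before their start sites are printed for that reason. RefSeq's promoter table (GRCm38.p6) matched 5 of the 9 members by symbol. Capitals mark GGAA (the core of ETS factor sites) and GGGCGG (the GC box), searched on both strands, so that TTCC and CCGCCC are marked as well.
Cldn5, chr16:18776597-18776846, plus strand: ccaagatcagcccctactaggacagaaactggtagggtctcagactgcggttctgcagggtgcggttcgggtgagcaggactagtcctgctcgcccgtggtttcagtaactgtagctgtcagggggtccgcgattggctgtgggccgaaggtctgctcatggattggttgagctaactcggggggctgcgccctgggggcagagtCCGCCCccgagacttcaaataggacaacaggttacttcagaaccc
Ocln, chr13:100552719-100552968, minus strand: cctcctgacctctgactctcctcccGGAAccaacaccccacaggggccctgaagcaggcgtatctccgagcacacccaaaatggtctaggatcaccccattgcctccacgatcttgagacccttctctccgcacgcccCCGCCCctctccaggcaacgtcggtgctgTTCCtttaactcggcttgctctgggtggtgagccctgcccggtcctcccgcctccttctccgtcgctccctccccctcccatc
Cgnl1, chr9:71771603-71771852, minus strand: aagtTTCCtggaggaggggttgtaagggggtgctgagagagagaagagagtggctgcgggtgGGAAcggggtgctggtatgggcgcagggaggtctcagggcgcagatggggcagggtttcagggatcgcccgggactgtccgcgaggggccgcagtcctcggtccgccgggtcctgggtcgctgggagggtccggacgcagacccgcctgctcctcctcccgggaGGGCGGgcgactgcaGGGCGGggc

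A GC box was present in each of the 3 windows, 45 bases before the start of Cldn5, farther upstream of the Ocln start site printed, and in 2 copies, 24 and 9 bases before the start, in Cgnl1. Of the 32841 promoter windows of this length in the table, 32.7% held a GC box. GGAA was written nowhere in the Cldn5 window, while Ocln and Cgnl1 had 2 copies each, and 93.5% of all windows held it. CTTTGA (a TCF/LEF core, 13.8% of windows) and TATAAA (the TATA box, 12.4%) were in none of the 3 windows on either strand. GC content was 59.6% for Cldn5, 64% for Ocln and 70.8% for Cgnl1, against a median of 52.4%. The table holds a second start site for Ocln, whose window overlaps the printed one and has its GC box 43 bases before that start. F11r and Tjp1, the other members in the table, also had GC boxes. These matches describe letters in a window and were not tested as sites.

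The deposited endothelial label was checked against 12 endothelial genes that are not members. The summed level of these 12, among them Egfl7, Tie1 and Kdr, was above 0 in every TEC, from 460 to 3758 TP100K (values scaled to 100000 in each cell, and here per transcript length). It had a median of 0.774 TP100K in the cells labelled malignant on the same plates (33 on the control plate, 25 on the losartan, 8 on the anti-PD1 and 51 on the combined plate). The sum was above 0 in 64.1% of these malignant cells, and the highest of them, at 1222 TP100K, lay within the range of the TECs. Pericyte markers averaged 0.846 TP100K in sum over the TECs, Ptprc (CD45) was above 0 in 2 of them, and 3 of 9 pericyte markers, Kcnj8 among them, were at 0 throughout. Platelet markers summed to 0 in most TECs and to 517 TP100K in a single cell of the anti-PD1 plate. The TECs fell into the deposited clusters 3, 7 (57 cells) and 12 (23), with the rest in cluster 3. Depth differed among them: the median number of genes above 0 was 2714 in cluster 3, 4252 in cluster 7 and 1660 in cluster 12. The molecules behind these TPM values are unknown, so only the number of cells limits the intervals.

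Of the 9 genes, 5 (Cldn5, Ocln, Esam, Cdh5 and Cgnl1) were above 0 in most TECs and in few cells of every other type. Esam was above 0 in 96.9% of TECs (interval 93.4 to 98.9), Pecam1 in 94.9% (90.8 to 97.5), Cldn5 in 89.7% (84.6 to 93.6) and Cdh5 in 88.7% (83.4 to 92.8). Tjp1 followed with 85.1%, F11r with 76.9%, Cgnl1 with 71.8%, Ocln with 60.5% and Jam2 with 57.9%. In the 327 T cells of the CD3-positive plates, which share the TPM unit, Cldn5 was above 0 in 0.917% of cells, Ocln in 0.612%, Cdh5 in 0.306% and Cgnl1 in 0 of 327, which allows a share of up to 0.917%. In the heat map of shares the TEC column is high from top to bottom, and each other column is high at a few genes or none.

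**Figure D1:**
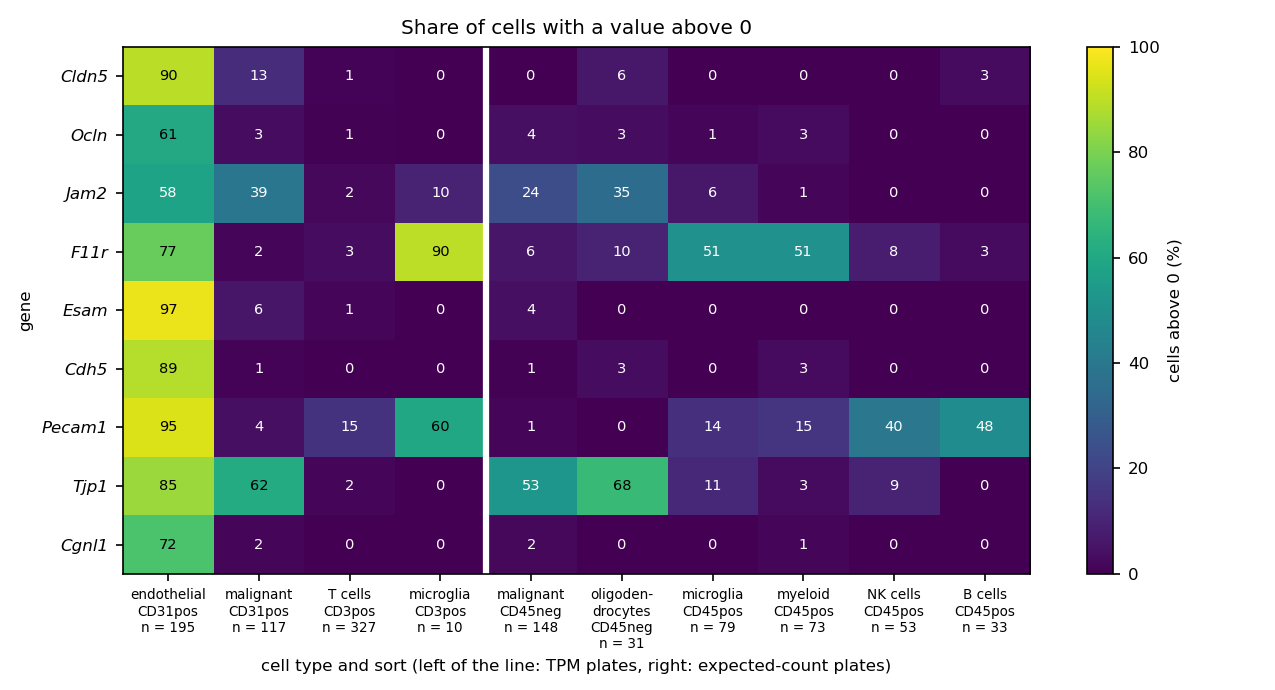
Share of cells with a value above 0 (%, color and printed number) for each junction gene (rows) in each deposited cell type and sort with at least 10 cells (columns, with the number of cells). Cldn5, Ocln, Esam, Cdh5 and Cgnl1 were above 0 in most endothelial cells and at 13% or less in every other column.

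On the CD31-positive plates all 9 genes had a higher mean in TECs than in malignant cells, each by a log2 ratio of means (after adding 1 TP100K) past 1, where 28.4% of the 9979 genes above 0 in at least 25% of either group were past 1 in either direction. Of those genes, 50.1% were higher in TECs. Scaling each cell by the 75th percentile of its values above 0, in place of its sum, made that 11.98%, and all 9 members stayed higher in TECs. Cldn5 averaged 1202 TP100K in TECs and 5.42 in malignant cells, a log2 ratio of 7.55. A single malignant cell at 579 TP100K gave 91.3% of the malignant sum, and the ratio was 9.65 with the highest cell of each group left out. The order of the low members depended on the pseudocount: Cgnl1 was at 2.72 and Jam2 at 2.82 with 1 TP100K, and at 5.77 and 3.48 with 0.1. The direction of the means held on each of the 4 plates for every member. Cldn5 ran from 5.61 on the losartan plate to 9.28 on the control plate. Jam2 ran from 0.88 on the anti-PD1 plate, which had 8 malignant cells, to 3.51. Shares of cells above 0 were less uniform for Jam2. They were 37.2% in TECs and 39.4% in malignant cells on the control plate, and 63.2% and 32% on the losartan plate. On the anti-PD1 plate they were 70.9% and 87.5%, and on the losartan+anti-PD1 plate 31.2% and 35.3%. Pecam1 encodes the protein the sort selected, so its difference between sorts is no finding. Within the sort, it was above 0 in 4.27% of the malignant cells.

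The other 4 members, Tjp1, Jam2, F11r and Pecam1, were also held by cells of other types. Tjp1, whose product also serves contacts of non-endothelial cells, was above 0 in 61.5% of malignant cells on the CD31-positive plates (mean 0.675 TP100K, against 13.7 in TECs). On the CD45-negative plates, whose expected counts are not per length, it was above 0 in 52.7% of malignant cells and 67.7% of 31 oligodendrocytes. Jam2 was above 0 in 39.3% of malignant cells (mean 1.23 TP100K) on the CD31-positive plates, and in 23.6% of malignant cells and 35.5% of oligodendrocytes on the CD45-negative ones. Glioma cells and oligodendrocytes thus shared these 2 genes with the TECs. F11r was above 0 in 50.6% of 79 microglia and 50.7% of 73 myeloid cells on the CD45-positive plates, but in 6.08% of the malignant cells on the CD45-negative ones. Pecam1 was above 0 in 48.5% of 33 B cells, 39.6% of 53 NK cells and 14.7% of 327 T cells, while Esam was above 0 in none of the B, NK, microglial or myeloid cells of the CD45-positive plates (0 of 79 microglia allows a share of up to 3.80%). The malignant cells had a median of 7042 genes above 0 on the CD31-positive plates and the TECs 3126, so the lower shares in malignant cells were measured at greater depth.

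Within the TECs, levels ran over more than 2 orders of magnitude. Cldn5 was the gene with the 5th highest mean of all 21765. Esam followed with a mean of 163.1 TP100K, Pecam1 with 55.9, F11r with 28.2 and Ocln with 19.8. The means of Jam2 (14.7), Tjp1 (13.7) and Cdh5 (13.1) lay close together, and Cgnl1 was lowest at 5.62. Medians over cells gave another order for the low genes: 8.99 for Tjp1, 7.995 for Cdh5, 5.44 for Ocln, 4.95 for Jam2 and 3.23 for Cgnl1. VE-cadherin's transcript, Cdh5, thus stood far below those of claudin-5 and ESAM in level while being detected in nearly as many cells as Cldn5.

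The 3 deposited clusters differed in which junction genes they held. These clusters were made by the authors from the same expression values, so the differences among them are a description with no test. The plot of single cells by cluster gives every value.

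**Figure D2:**
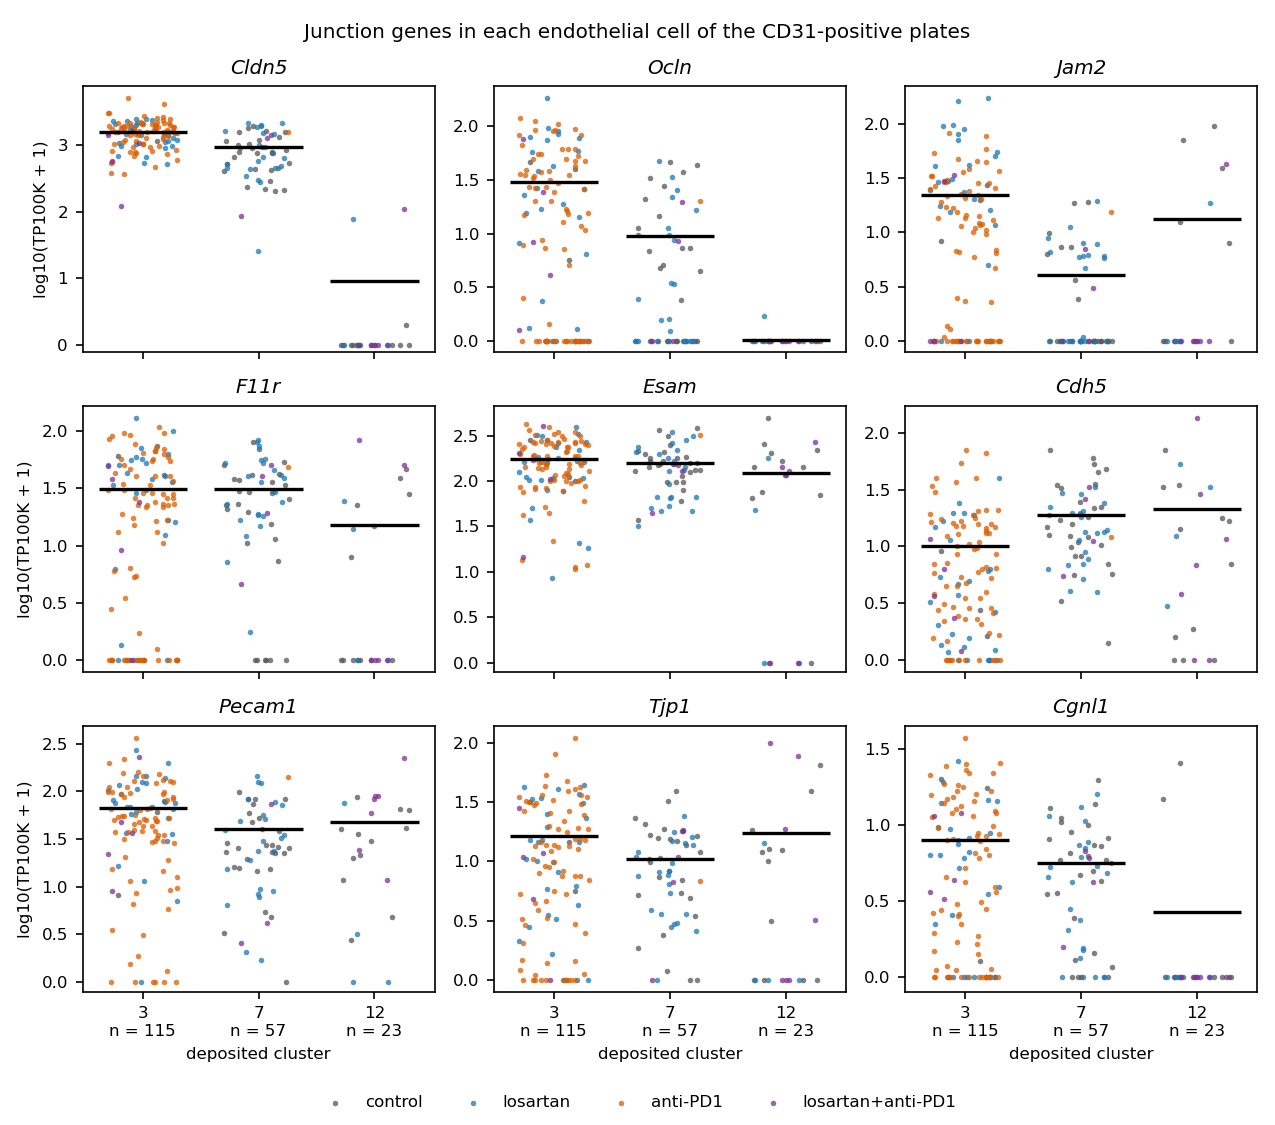
Level of each junction gene, as log10(TP100K + 1), in each endothelial cell of the CD31-positive plates by deposited cluster. Points are cells, colored by treatment, and the black line is the log10 of the arithmetic mean plus 1. Cluster 12 sits at 0 for Cldn5, Ocln and Cgnl1 in nearly every cell and overlaps the other clusters for Esam, Cdh5 and Pecam1.

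Cldn5 and Ocln, whose products lie in the tight junction strands, were nearly missing from cluster 12. Cldn5 was above 0 in every cell of cluster 3 (lowest 121.05, median 1571, highest 5078 TP100K) and in all 57 cells of cluster 7 (lowest 25, median 784, highest 2196). In cluster 12 it was above 0 in 3 of 23 cells, at 109.1, 76.7 and 0.997 TP100K, a share of 13% (2.78 to 33.6). The ranges of clusters 3 and 7 overlapped widely, and 2 cells of cluster 12 reached into the range of cluster 7 and none into that of cluster 3. Ocln averaged 29.3 TP100K in cluster 3 and 8.52 in cluster 7, with shares of 73% and 57.9%. In cluster 12 it was above 0 in 1 of 23 cells, at 0.712 TP100K. That cell, of the losartan plate, was also the cell with the second highest Cldn5 value in the cluster.

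Among the immunoglobulin-like members, Jam2 differed among the clusters and Esam was nearly even. Jam2 averaged 21.1 TP100K in cluster 3, 3.04 in cluster 7 and 12.2 in cluster 12, with shares of 71.3%, 42.1% and 30.4%. Cluster 7, the deepest, was therefore lowest in mean, and the 7 positive cells of cluster 12 reached 94.8 TP100K, more than any cell of cluster 7 (18.5). Esam had means of 174.1, 157.3 and 122.1 TP100K in clusters 3, 7 and 12, and was above 0 in every cell of clusters 3 and 7 and in 73.9% of cluster 12 (51.6 to 89.8). F11r had close means in clusters 3 and 7 (30.2 and 29.9 TP100K) and 13.97 in cluster 12, where 43.5% of cells were above 0.

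The adherens gene Cdh5 was ordered otherwise. It was lowest in cluster 3, with a mean of 9.17 TP100K against 17.97 in cluster 7 and 20.3 in cluster 12. All 57 cells of cluster 7 were above 0 for it, 85.2% of cluster 3 and 78.3% of cluster 12. Its highest cell, at 133.3 TP100K, gave 28.6% of the cluster 12 sum. Pecam1, of the cell border, was highest in cluster 3 as Cldn5 was: it averaged 66.2, 38.9 and 46.3 TP100K in clusters 3, 7 and 12, and was above 0 in at least 91.3% of cells of each.

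Of the cytoplasmic pair, Tjp1 was above 0 in 87% of cluster 3, 93% of cluster 7 and 56.5% of cluster 12, with means of 15.3, 9.48 and 16.2 TP100K. Cgnl1 averaged 6.92 TP100K in cluster 3 and 4.59 in cluster 7, and was above 0 in 2 of 23 cells of cluster 12 (8.70%, 1.07 to 28), against 78.3% and 84.2% of the other clusters. ZO-1's transcript was thus above 0 in more cells of cluster 12 than paracingulin's. Among cluster 12 cells with 1000 to 2000 genes its share was 43.75% (19.8 to 70.1).

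As log2 ratios, cluster 3 against clusters 7 and 12 together gave 2.10 for Ocln, 1.73 for Jam2, 1.25 for Cldn5 and -0.95 for Cdh5. With 8 members higher in cluster 3 and 1 lower, 3 were past 1, where 15.6% of the 6396 genes tested were past 1 in either direction. The member median was 0.68 and that of all genes 0.05. With the 75th-percentile scaling the median of all genes fell by 0.48 and that of the members was 0.035, and 13.8% of the genes past 1 were higher in cluster 3 in place of 58.4%. That scaling turned F11r, Esam and Tjp1 to lower in cluster 3, of which only F11r was still lower with the shift of all genes taken off. It left 3 members past 1, with Cdh5 (-1.62) in place of Cldn5 (0.33, or 0.81 less the shift). Cluster 7 against cluster 12 gave 6.67 for Cldn5, 3.21 for Ocln, 1.06 for Cgnl1 and 1.046 for F11r, and -1.71 for Jam2. With these 5 of 9 members past 1, 42.5% of the 7088 genes tested were past 1 too. The central 90% of all genes tested lay between -1.67 and 2.44, with Cldn5 and Ocln above it and Jam2 just below. Under the 75th-percentile scaling the median of all genes moved up by 0.98, 95.4% of the genes past 1 were higher in cluster 7 in place of 66.5%, and Cdh5, Pecam1 and Tjp1 turned to higher in cluster 7. With that shift taken off, Cdh5 and Pecam1 turned and the same 5 members were past 1.

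Depth moved with the clusters, so shares were also compared among cells of like depth. Among cells with 1000 to 2000 genes, Cldn5 was above 0 in 28 of 28 cells of cluster 3 (mean 1594 TP100K) and in 6.25% of 16 cells of cluster 12 (mean 0.0623). Ocln was above 0 in 53.6% of the former and in none of the latter, and Cgnl1 in 71.4% and 12.5%. In those same cells Cdh5 was above 0 in 67.9% of cluster 3 and 75% of cluster 12, and Pecam1 in 75% and 93.8%. The lower shares of Cldn5, Ocln and Cgnl1 in cluster 12 were thus also seen at like depth, as a description. Jam2 was at 50% (30.6 to 69.4) and 31.2% (11.02 to 58.7). Tjp1 was at 85.7% of these cluster 3 cells and 43.75% of the cluster 12 ones, F11r at 53.6% and 18.75%, and Esam at 100% and 75%. Lower shares in cluster 12 were thus not limited to Cldn5, Ocln and Cgnl1. Plate differed too: the 28 cells of cluster 3 were from the anti-PD1 (19) and losartan (9) plates, and the 16 of cluster 12 from the control (9), losartan (2) and losartan+anti-PD1 (5) plates. Cluster 7 had 54 of its 57 cells above 3000 genes, and against the 49 cells of cluster 3 in that range Jam2 was above 0 in 42.6% and 83.7%, Ocln in 61.1% and 81.6%, and Cdh5 in 100% and 97.96%.

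**Figure D3:**
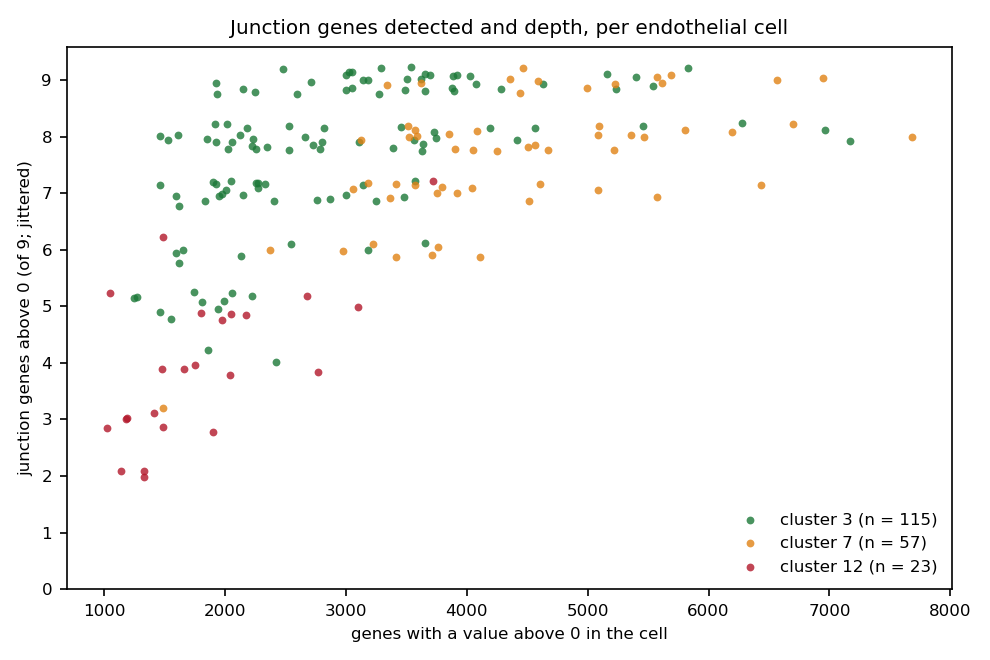
Number of the 9 junction genes above 0 in each endothelial cell (y axis, jittered) against the number of all genes above 0 in that cell (x axis), colored by deposited cluster. At 1000 to 2000 genes, cluster 3 cells mostly hold 5 or more of the junction genes and cluster 12 cells mostly 5 or fewer.

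Counted cell by cell, a TEC held a median of 8 of the 9 genes, and 49 of them (25.1%) held all 9. The median was 8 in cluster 3 and in cluster 7, and 4 in cluster 12, where no cell held all 9 and 1 of 23 held 7. The malignant cells of the same plates held a median of 1, and 1 of them held 7 or more.

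The clusters also differed in barrier and tumor-vessel markers. The summed level of 7 barrier genes, such as Slco1c1 and Mfsd2a, averaged 1448 TP100K in cluster 3, 297 in cluster 7 and 161.9 in cluster 12. Itm2a (603.8 TP100K) and Pltp (332.8) gave most of the cluster 3 sum, and each of the 7 averaged highest there. From cluster 7 to cluster 12, Pltp rose from 33.6 to 110.9 TP100K and Slco1a4 from 12.98 to 13.95, while the others fell. Plvap, which makes the diaphragms of fenestrated capillaries, averaged 1.73, 1.22 and 209.03 TP100K in clusters 3, 7 and 12. Cluster 12 thus paired a low Cldn5 with a high Plvap, and 12 of its 23 cells came from the control plate. The other tumor-vessel markers were divided. Igfbp3 and Esm1 also averaged highest in cluster 12, but Angpt2, Apln, Col4a1 and Vwf averaged highest in cluster 7. Vwf averaged 27.94, 29.06 and 0.660 TP100K in clusters 3, 7 and 12. Platelet, B cell and astrocyte markers were at 0 in all cells of cluster 12. Microglia and macrophage markers were above 0 in 3 of its 23 cells and averaged 2.94 TP100K in sum (highest cell 52.6), against 0.118 in cluster 3 and 0.0532 in cluster 7, with 5 of the 8, among them Cx3cr1 and P2ry12, at 0. Oligodendrocyte markers averaged 1.68, 0.367 and 0.810 TP100K in clusters 12, 3 and 7, and NK markers were above 0 in 1 cell of cluster 12. The part of these cells in the levels was not tested.

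Over all TECs of the 4 plates (43, 57, 79 and 16 cells) the members moved together loosely. The best-matched pair was Cldn5 and Ocln (Spearman rho 0.52), followed by Ocln and Pecam1 (0.43) and Cldn5 and Jam2 (0.41). For Cdh5 the pooled rho was -0.21 with Jam2, -0.16 with Ocln, -0.12 with Cldn5 and at most 0.03 with any member. Within clusters it took other values: with Cldn5 it was 0.15 in cluster 3 and -0.31 in cluster 7, with Jam2 0.0072 and -0.43, and with Cgnl1 -0.04 and 0.21. These cells share plates, clusters and depth, so the values describe this set of cells. Among 5135 genes above 0 in at least 25% of TECs, the genes most like Cldn5 were Itm2a (0.72), Bsg (0.71), which encodes basigin, and Ly6e (0.62). Those most like Ocln were Cldn5, Bsg (0.51) and the organic anion transporter gene Slco1a4 (0.50). Those most like Jam2 were the phospholipid transfer protein gene Pltp (0.48), Ptrf (0.45) and Itm2a (0.44). The 3 nearest Cdh5 were Pde4b (0.39), Fscn1 (0.38) and the basement membrane collagen gene Col4a1 (0.38), and each of them averaged highest in cluster 7. For Pecam1 they were Ly6e (0.50), Eef1a1 (0.46) and Ptrf (0.44). For F11r, Esam, Tjp1 and Cgnl1 the best value was 0.37 or lower.

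Treatment plates were compared next, to ask which junction genes the TECs of each arm held. Cldn5 averaged 652 TP100K on the control plate (lowest 0, median 528, highest 1969 over cells), 1181 on the losartan plate (0, 1068, 2485), 1648 on the anti-PD1 plate (367, 1628, 5078) and 546 on the losartan+anti-PD1 plate (0, 115.1, 1647). It was above 0 in 74.4%, 94.7%, 100% and 62.5% of their cells. The cells of all 4 plates overlapped, but the lowest cell of the anti-PD1 plate lay above the median of the losartan+anti-PD1 plate. Ocln averaged 8.28, 20.98, 27.5 and 8.46 TP100K in the same order, and a single cell at 75.3 TP100K gave 55.6% of the last sum. Jam2 averaged 7.91, 22, 14.8 and 6.92 TP100K. These 3 genes were low in the same plates, control and losartan+anti-PD1.

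The other 6 members varied less or in another order. Esam averaged 161.7, 148.6, 180.4 and 132.8 TP100K in that order, F11r 23.6, 32.5, 28.7 and 23.3, and Tjp1 12.3, 11.03, 15.6 and 17.5. Cdh5 averaged 18.5, 11.1, 10.7 and 17.04 TP100K, higher on the plates where Cldn5 was low, with medians of 11.7, 6.78, 5.57 and 5.63. Its last mean rested on 1 cell at 133.3 TP100K, which gave 48.9% of that plate's sum. Pecam1 stood apart with 34.8 TP100K on the control plate and 61.3 to 64.4 on the others. Cgnl1 averaged 5.14, 4.56, 7.22 and 2.76 TP100K.

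Against control, losartan TECs had 5 members higher and 4 lower. Jam2 (log2 ratio 1.37) and Ocln (1.25) were past 1, where 15.7% of 6315 genes were past 1 in either direction, and Cldn5 was at 0.86 and Cdh5 at -0.69. Anti-PD1 TECs had 8 members higher and Cdh5 lower (-0.74), and Ocln (1.62) and Cldn5 (1.34) were past 1, with 17.9% of 6288 genes past 1. The 75th-percentile scaling moved the share of higher genes among those past 1 from 59.6% to 24.9% for losartan and from 58.8% to 18.5% for anti-PD1, and the median of all genes by -0.22 and -0.40. With it, F11r, Esam, Tjp1 and Cgnl1 turned to lower under anti-PD1, of which only F11r did with the shift taken off. Cldn5 (0.53) and Ocln (0.90) were then not past 1 under anti-PD1 and Cdh5 was (-1.48), while with the shift taken off Ocln (1.30), Jam2 (1.35) and Cdh5 (-1.08) were and Cldn5 was at 0.93. The member medians were 0.44 and 0.42, beside 0.05 and 0.07 for all genes. Both comparisons share the control plate, whose 43 TECs held 3 cells of cluster 3.

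Losartan+anti-PD1 TECs against control had 3 members higher and 6 lower and none past 1, where 25.8% of 7003 genes were past 1, and the 75th-percentile scaling turned Jam2 to higher and Tjp1 to lower. Against anti-PD1 alone, Cldn5 and Ocln (both -1.59) and Cgnl1 (-1.13) were past -1, Jam2 was at -0.998 without passing it, and 26% of 6550 genes were past 1 in either direction. Against losartan alone, Jam2 (-1.54), Ocln (-1.22) and Cldn5 (-1.11) were past -1, where 26.3% of 6669 genes were past 1. In both comparisons 6 members were lower and 3 higher (Cdh5, Pecam1 and Tjp1), and the 75th-percentile scaling gave 5 members higher against anti-PD1 and 4 against losartan, F11r and Esam turning in the former and Esam in the latter, while the median of all genes moved up by 0.33 and 0.17. With that shift taken off, F11r (-0.20) and Esam (-0.15) did not turn against anti-PD1, Pecam1 and Tjp1 did, and Cldn5 (-1.02), Ocln (-1.22) and Cgnl1 (-1.06) were past -1. Against losartan no member was past 1 under that scaling, with the shift taken off or not, and Esam, Cdh5 and Pecam1 turned with it taken off. It moved the share of higher genes among those past 1 from 43.2% to 72.3% and from 44.4% to 58.3%. Without cluster 12, an alternative added after the values were seen, no member was past 1 against anti-PD1 (Cldn5 -0.78, Ocln -0.83, Cgnl1 -0.48), and only Jam2 (-1.48) was against losartan. With 16 TECs, 1 cell could set a value: leaving out the highest cell of each gene moved Cdh5 against anti-PD1 from 0.62 to -0.09 and Tjp1 from 0.15 to -0.24.

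**Figure D4:**
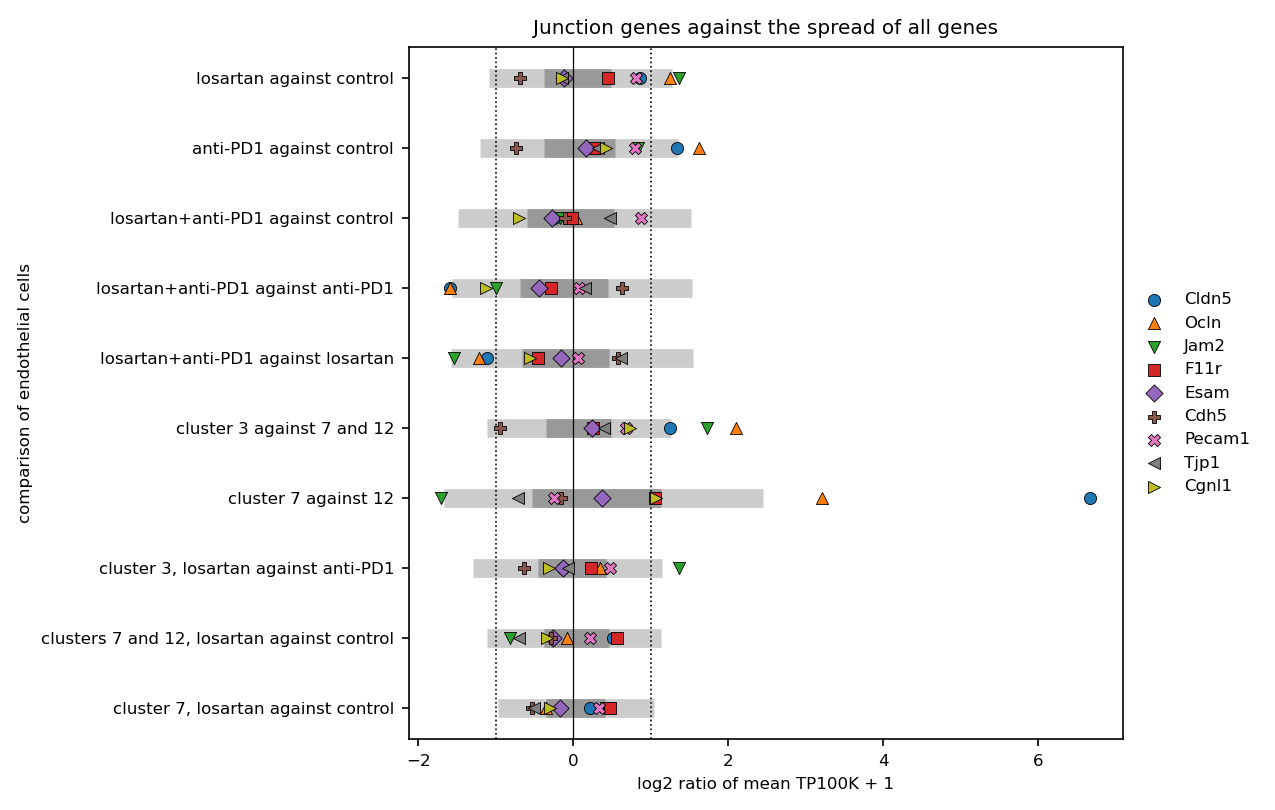
Log2 ratio of mean TP100K + 1 (x axis) for each junction gene (symbols) in 10 comparisons of endothelial cells (rows). Dark and light grey bars span the central 50% and 90% of all genes tested in that comparison, and dotted lines mark -1 and 1. Cldn5, Ocln and Jam2 lie outside the light bar for cluster 7 against 12. Members also lie outside it in other rows. These are Ocln and Jam2 for cluster 3 against 7 and 12, and Jam2 for losartan against control and within cluster 3. Ocln does so for anti-PD1 against control, and Cldn5 and Ocln narrowly for losartan+anti-PD1 against anti-PD1. Every other row, pooled or within a cluster, keeps most members between the dotted lines.

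The cluster mix differed among the plates. Cluster 3 held 3 of 43 control TECs (6.98%, 1.46 to 19.1), 29 of 57 losartan TECs (50.9%, 37.3 to 64.4), 78 of 79 anti-PD1 TECs (98.7%, 93.1 to 100) and 5 of 16 losartan+anti-PD1 TECs (31.2%, 11.02 to 58.7). Cluster 12, which nearly lacks Cldn5 and Ocln, held 12, 4, 0 and 7 cells. If each TEC is given the mean of its cluster, the Cldn5 plate means come to 716, 1193, 1568 and 728 TP100K, beside the measured 652, 1181, 1648 and 546, and the Ocln means to 7.60, 18.5, 29.04 and 11.3, beside 8.28, 20.98, 27.5 and 8.46. For Jam2 the same step gives 6.85, 12.8, 20.8 and 12.7 TP100K, beside 7.91, 22, 14.8 and 6.92. On the losartan+anti-PD1 plate the measured means of all 3 genes were below these values, and for Cldn5 the step puts that plate above control where the measured mean was below it. The cluster means come partly from the same cells, most cluster 3 cells being from the anti-PD1 plate. Whether treatment or the plate set the mix cannot be told apart.

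Plates were then compared within clusters. In cluster 3, losartan (29 cells) against anti-PD1 (78 cells) gave 1503 and 1649 TP100K for Cldn5, a log2 ratio of -0.13, with cells from 514 to 2485 and from 367 to 5078. Ocln averaged 35.2 and 27.6 TP100K (0.34), and Cdh5 6.53 and 10.7 (-0.64). Jam2 alone was past 1, with 39.7 and 14.8 TP100K (1.36), medians of 23.4 and 10.2 and highest cells of 170.6 and 81.5, while 16.2% of 4871 genes were past 1. Its share of cells above 0 was 75.9% and 70.5%, so the cells that held Jam2 on the losartan plate held more of it. The median number of genes above 0 was 2151 in these losartan cells and 2999 in the anti-PD1 ones, and Jam2 stayed at 1.095 among cells with 2000 to 6000 genes. Under the 75th-percentile scaling, where 7.97% of the genes past 1 were higher in place of 42.8%, Ocln, F11r and Pecam1 turned to lower in the losartan cells, none of them with the shift taken off, and Jam2 stood at 0.68, or 1.02 above the shift of all genes.

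In clusters 7 and 12 together, losartan (28 cells) against control (40) left no member past 1, beside 14% of 7474 genes, with values from -0.82 for Jam2 to 0.56 for F11r. The 75th-percentile scaling turned Esam to higher there, though not with the shift of 0.14 in all genes taken off, and moved the share of higher genes among those past 1 from 52.1% to 71.8%. In cluster 7 alone, a comparison added after the values were seen, Cldn5 averaged 987 TP100K in 24 losartan cells and 852 in 28 control cells (log2 ratio 0.21), Ocln 7.25 and 9.53 (-0.35) and Cdh5 14.4 and 21.3 (-0.53). F11r was above 0 in 24 of 24 and 22 of 28 cells and averaged 35.2 and 25.1 TP100K (0.47). No member was past 1 there and 10.4% of 8166 genes were. The losartan+anti-PD1 plate had 5, 4 and 7 cells in clusters 3, 7 and 12. In cluster 3 its Cldn5 values were 121.05, 590, 1092, 1451 and 1647 TP100K. A single one of them, the lowest, was below the range of the anti-PD1 cells (367 to 5078). In cluster 7 its 4 cells ran from 84.4 to 1409 TP100K.

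**Figure D5:**
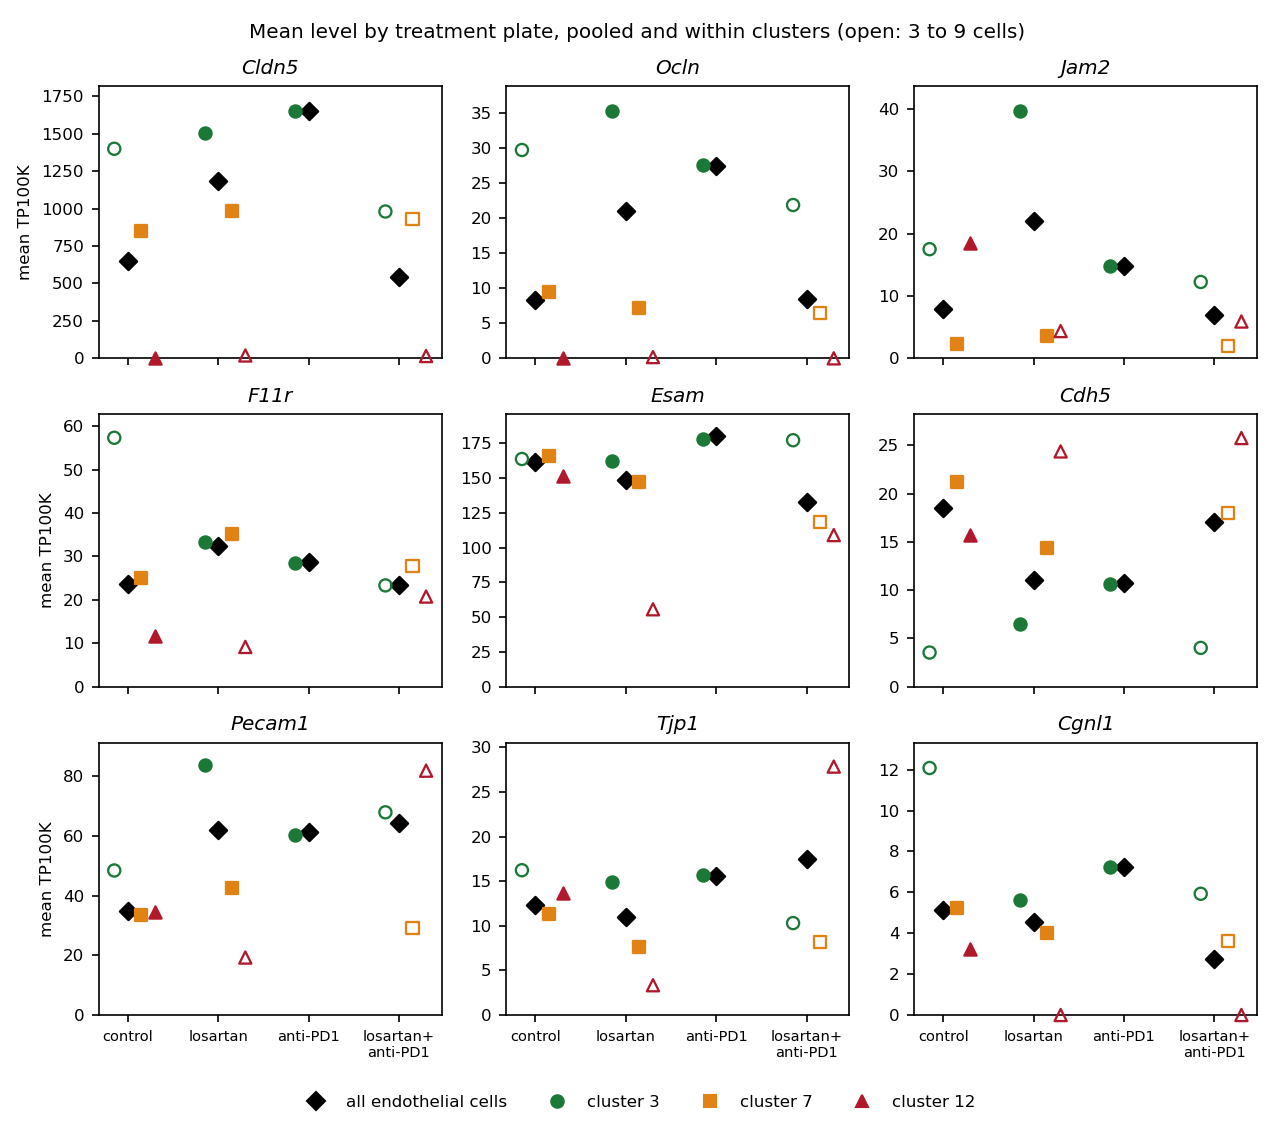
Mean TP100K of each junction gene (y axes, from 0) on the 4 treatment plates (x axis) for all endothelial cells and within each deposited cluster. Filled symbols stand for at least 10 cells and open ones for 3 to 9. For Cldn5 the pooled means run from 546 to 1648 over the 4 plates, with losartan at 1181 and anti-PD1 at 1648. Within cluster 3, the losartan and anti-PD1 plates sit at 1503 and 1649. The few cluster 3 cells of the other plates have a middle value, which is not the mean plotted, of 1474.7 for control and 1092 for losartan+anti-PD1. These cells ran from 1161 to 1561 for control and from 121.05 to 1647 for losartan+anti-PD1.

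Other genes of the same structures were taken from a list of 80 tight and adherens junction symbols, of which 72 were in the table and 33 were above 0 in at least 25% of TECs. The other claudins were sparse: Cldn1, Cldn2, Cldn3, Cldn7, Cldn15 and Cldn23 were at 0 in every TEC, and Cldn25 was above 0 in 25.1%. Lsr, which encodes angulin-1 of the corners where 3 cells meet, had the pattern of Cldn5. It averaged 71.6 TP100K in cluster 3, 33.1 in cluster 7 and 0.0539 in cluster 12, and by plate 28.2, 57.7, 66.7 and 21.5 in the order control, losartan, anti-PD1 and both agents. Igsf5, a further junctional immunoglobulin-like gene, was above 0 in 26.1% and 40.4% of clusters 3 and 7 and listed at 0 in all 23 cells of cluster 12.

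N-cadherin, nectin-2 and connexin-43 transcripts were highest in cluster 7. Cdh2 (N-cadherin) was above 0 in 91.2% of cluster 7 (mean 16.1 TP100K), 23.5% of cluster 3 (1.65) and none of cluster 12, and the gap junction gene Gja1 averaged 21.6, 7.33 and 14.6 in clusters 7, 3 and 12. Pvrl2 (nectin-2) averaged 16.7 TP100K in cluster 7 and 5.46 in cluster 3. The catenin genes that bind VE-cadherin were found in all 3 clusters: Ctnnb1 averaged 35.9, 26.3 and 31.3 TP100K in clusters 3, 7 and 12, and Jup 9.11, 3.35 and 16.9. Shares of cells above 0 were less even for Ctnnb1, at 85.2%, 91.2% and 47.8%. They were 65.2%, 68.4% and 78.3% for Jup, and 60%, 91.2% and 47.8% for Ctnnd1, a further catenin gene. Rdx (radixin) averaged 65.9 TP100K in cluster 12 and 7.51 in cluster 7. Ptprb, the vascular phosphatase that acts on VE-cadherin, was above 0 in 97.4%, 98.2% and 95.7% of the 3 clusters.

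The list was also compared by treatment. Losartan against control had 19 of its 39 tested genes higher and 20 lower, with 3 past 1 and 1 past -1 (15.7% of all genes were past 1 in either direction) and a median of -0.03. Anti-PD1 against control had 18 higher and 19 lower, with 2 past 1 and 3 past -1 (17.9% of all genes) and a median of -0.02. Losartan+anti-PD1 against control had 16 higher and 24 lower, with 5 past 1 and 5 past -1 of 40 (25.8% of all genes) and a median of -0.22, beside -0.05 for all genes. Zyx and Ptprm (both 1.16) and Lsr (1.004) were highest and Rap1a (-1.46) lowest for losartan. For anti-PD1, Ptprm (1.35) and Lsr (1.21) were highest and Cdh2 (-1.87) and Gja1 (-1.42) lowest. Losartan+anti-PD1 against anti-PD1 had 18 higher and 19 lower, Lsr (-1.59) and Ptprm (-1.38) being lowest and Cldn25 (2.21) highest. Cldn25 was above 0 in 25% and 25.3% of the cells of these 2 plates, so its ratio may rest on very few cells. In cluster 12 it averaged 13.05 TP100K with only 4.35% of cells above 0. Ptprm, a homophilic receptor phosphatase of endothelial contacts, averaged 12.2 TP100K in cluster 3, 3.30 in cluster 7 and 2.74 in cluster 12. Within cluster 3, losartan against anti-PD1, Amotl2 (1.68) and Gja1 (1.053) were highest and Rap1a (-1.36) lowest.

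A further 6 TECs lay on the CD45-negative plates, whose values are expected counts. There Cldn5, F11r, Esam, Cdh5, Pecam1, Tjp1 and Cgnl1 were above 0 in 6 of 6 cells, Ocln in 5 and Jam2 in 3. Cldn5 averaged 616 per 100000 counts, Esam 104.9, Tjp1 60.2 and Cgnl1 42.4. Counts that are not divided by transcript length are not comparable between genes.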

How the data were processed

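Single cells of mouse GL261 gliomas were taken by 4 sorts (positive for CD31, CD3 or CD45, or negative for CD45) and sequenced by Smart-seq2, a full-length protocol without strand marks, on 16 plates, 1 for each of 4 treatments in each of 4 sorts. The submitters' processing notes name TopHat, Bowtie, RSEM 1.2.8 and the mm10 build, without their roles. The authors deposited TPM values, which are per transcript length and sum to 1000000 in each cell, for the CD31-positive and CD3-positive plates (652 cells). The authors deposited RSEM expected counts, which are not per length, for the CD45-negative and CD45-positive plates (426 cells). Molecules per cell are unknown for TPM, and genes above 0 per cell ran from 1023 to 7993 there. Cell types and clusters were the authors' deposited annotation. The clusters were made on the same genes.

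Each cell was scaled to 100000 (TP100K). Levels were compared only within a unit, except in the alternative that added TECs of the CD45-negative plates. They were compared as means, shares of cells above 0 with exact (Clopper-Pearson) 95% intervals, and log2 ratios of means with a pseudocount of 1 TP100K. Ratios were taken among genes above 0 in at least 25% of cells of either group, a log2 ratio past 1 in size being called. A share of 0 was given with the limit that 3 cells of the total set. With 1 plate per group no test between groups was made. Cells were not filtered further and doublets were not called here. The members and lists were chosen with earlier results of these data known. Partner genes named are among the 3 highest and 3 lowest of the list per comparison, 1 of which is not reported here, and others described by cluster were chosen after their values were seen. Alternatives were pseudocounts of 0.1 and 10, the mean of ln values, 75th-percentile scaling, cells with 2000 to 6000 genes, leaving out the highest cell, equal weight to clusters, added TECs of the CD45-negative plates, looser gene filters and, added later, leaving out cluster 12. The scripts, tested on simulated data, ran in Python 3.11.15 with scipy 1.17.1, numpy 2.4.6 and pandas 2.3.3, and figures were drawn with matplotlib 3.10.9.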

Additional observations from a re-analysis of the deposited data

Results flagged for a closer look

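Losartan's log2 ratio had opposite signs without anti-PD1 (losartan against control) and with it (losartan+anti-PD1 against anti-PD1) for 6 of the 9 junction genes. The ratio without minus that with anti-PD1 was 2.45 for Cldn5 (0.86 and -1.59), 2.83 for Ocln (1.25 and -1.59) and 2.37 for Jam2 (1.37 and -0.998). It was 0.73 for F11r (0.44 and -0.29), -1.31 for Cdh5 (-0.69 and 0.62) and -0.30 for Tjp1 (-0.15 and 0.15). Of 5575 genes tested in both comparisons, 58.5% had opposite signs. With the highest cell of each gene left out, Cdh5 (-0.68 and -0.09) and Tjp1 (-0.08 and -0.24) had the same sign and Pecam1 (0.78 and -0.10) opposite ones, which left 5 members and 61.3% of genes with opposite signs. Under 75th-percentile scaling F11r (0.03 and 0.14) had the same sign and Esam (-0.36 and 0.19) opposite ones, with 6 members and 60.1% of genes opposite. Each ratio set 1 plate against 1 plate, so the difference was not tested. Cluster 3, the cluster with most Cldn5 and Ocln, held 3 of 43 control, 29 of 57 losartan, 78 of 79 anti-PD1 and 5 of 16 losartan+anti-PD1 TECs, and the part of this mix in the differences was not tested.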

How the results depend on the processing

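No member's called value changed sign under the alternatives run. Of 84 alternative values of the members' median log2 ratio, 77 moved by less than 1.5-fold, as did 618 of 756 for single members, and 65 of 84 counts of members past 1 stayed within 1.5 times. For losartan against control the count went from 2 to 0 with a pseudocount of 10, with 75th-percentile scaling and with equal weight to clusters, and to 1 in cells with 2000 to 6000 genes and without cluster 12. For anti-PD1 against control it went from 2 (Ocln and Cldn5) to 1 (Cdh5, lower) with 75th-percentile scaling, and for losartan+anti-PD1 against control from 0 to 1 with ln means and equal weight. Against anti-PD1 it went from 3 to 0 with 75th-percentile scaling, which moved all genes by 0.33 (the same 3 were past -1 with that shift taken off), and without cluster 12. Against losartan it went from 3 to 0 with that scaling and to 1 with a pseudocount of 10, at 2000 to 6000 genes, with equal weight and without cluster 12. For cluster 7 against 12 it went from 5 to 1 with a pseudocount of 10, and within cluster 3 from 1 to 0 with 75th-percentile scaling (1 with the shift taken off). Losartan against control went from 0 to 2 in clusters 7 and 12 and from 0 to 1 in cluster 7 with ln means. The members' median went from 0.68 to 0.035 for cluster 3 against 7 and 12 with 75th-percentile scaling, and for cluster 7 against 12 from 0.36 to 1.61 with ln means and 1.82 with that scaling. For endothelial against malignant cells it went from 4.31 to 6.84 with a pseudocount of 0.1, 1.57 with 10, 2.88 with ln means and 3.64 at 2000 to 6000 genes. The cause of these moves was not tested. Adding the CD45-negative TECs moved 0 of 90 values. Equal weight was not run where anti-PD1 had 1 cell outside cluster 3. No paired analysis was possible because each treatment had 1 plate per sort. The losartan+anti-PD1 values rest on 16 TECs.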
